A study of Mus musculus with 9 samples.

Results

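The cyclin-dependent kinase (CDK) inhibitor genes of the mouse were followed in 3 sorted myeloid populations of normal bone marrow. They are 8 genes (Cdkn1a, Cdkn1b, Cdkn1c, Cdkn2a, Cdkn2b, Cdkn2c, Cdkn2d and Cdkn3), taken as the probe sets whose platform annotation names exactly 1 gene and that gene is in the family. This gave 10 probe sets of 34945 that name 1 gene and 45101 in all, and each of the 8 genes had at least 1. The populations came from C57BL/6 mice, a standard inbred strain, of 4 to 10 weeks and of either sex. Neutrophils (c-kit- Gr1+ Mac1+) were mature cells. Mac1+ myeloblasts (c-kit+ Gr1+ Mac1+) and Mac1lo/- myeloblasts (c-kit+ Gr1+, with low or absent Mac1, called Mac1- in the sample names) were both immature by their cytology and lacked a set of lymphoid and erythroid lineage antigens. All cells were normal and untreated, and magnetic separation by c-kit came before the sort. Each population was measured on 3 Affymetrix expression arrays, 9 in all. The labels do not say that the replicates came from separate animals, so the p-values rest on array-to-array spread that could be purely technical.

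CDK inhibitors restrain the kinases that drive the cell cycle. The CIP/KIP proteins (p21, p27 and p57, from Cdkn1a, Cdkn1b and Cdkn1c) bind cyclin-kinase complexes, above all those of Cdk2, while the INK4 proteins (from Cdkn2a, Cdkn2b, Cdkn2c and Cdkn2d) bind Cdk4 and Cdk6 and keep D-type cyclins from them. Cdkn3 encodes a phosphatase that removes the activating phosphate from Cdk2, and is itself a gene of dividing cells. Myeloblasts divide, and mature neutrophils have left the cell cycle for good.

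RefSeq promoter windows (build GRCm38.p6) were found for 7 of the 8 genes, 10 windows in all. The 250 bases before the annotated start are shown for 4 genes that differed between neutrophils and both myeloblast populations, with the upstream start of Cdkn1a. Cdkn1b and Cdkn2d were higher in neutrophils, and Cdkn1a and Cdkn3 were lower. Cdkn2c, also lower in neutrophils than in both, is not shown. Capitals mark a p53 response element core in Cdkn1a (CATG, any 6 bases, then CATG), CCAAT in Cdkn1b and Cdkn3, and both CCAAT and the GC box GGGCGG in Cdkn2d, on either strand.
Cdkn1a promoter, chr17:29090729-29090978, strand +: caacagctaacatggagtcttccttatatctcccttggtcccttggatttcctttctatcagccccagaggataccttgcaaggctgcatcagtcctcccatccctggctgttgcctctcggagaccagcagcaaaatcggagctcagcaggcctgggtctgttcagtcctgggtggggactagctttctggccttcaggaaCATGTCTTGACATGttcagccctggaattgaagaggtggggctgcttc
Cdkn1b promoter, chr6:134920151-134920400, strand +: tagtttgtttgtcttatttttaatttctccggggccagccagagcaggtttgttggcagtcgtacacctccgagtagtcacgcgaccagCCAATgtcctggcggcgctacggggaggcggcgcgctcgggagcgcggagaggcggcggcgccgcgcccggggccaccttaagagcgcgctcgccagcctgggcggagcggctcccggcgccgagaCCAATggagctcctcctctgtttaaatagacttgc
Cdkn2d promoter, chr9:21291210-21291459, strand -: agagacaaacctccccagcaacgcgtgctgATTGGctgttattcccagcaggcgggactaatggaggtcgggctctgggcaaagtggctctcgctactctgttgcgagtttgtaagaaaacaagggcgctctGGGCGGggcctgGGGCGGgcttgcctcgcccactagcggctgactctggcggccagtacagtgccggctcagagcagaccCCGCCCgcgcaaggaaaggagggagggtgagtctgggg
Cdkn3 promoter, chr14:46760291-46760540, strand +: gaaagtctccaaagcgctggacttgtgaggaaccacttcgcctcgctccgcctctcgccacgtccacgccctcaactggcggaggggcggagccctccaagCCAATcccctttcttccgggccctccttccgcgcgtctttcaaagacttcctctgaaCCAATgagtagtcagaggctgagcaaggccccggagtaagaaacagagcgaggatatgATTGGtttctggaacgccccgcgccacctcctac

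The upstream Cdkn1a window held the p53 core once, its first base 48 before the start, and 0.490% of 32851 windows of 250 bases in the table held it. The window of the other Cdkn1a start had none. Cdkn3 had 3 CCAAT boxes, a motif bound by NF-Y and common in genes of the G2 and M phases, and Cdkn1b had 2. CCAAT was present in 33.85% of all windows. GGGCGG, an Sp1 motif present in 32.7% of all windows, occurred 3 times in Cdkn2d and once each in Cdkn1b and Cdkn3, where it is not capitalised. Among windows not shown, it occurred 3 times in a window of Cdkn2c, which was lower in neutrophils. The window of the other Cdkn1a start and a Cdkn2a window held it 2 times each. TTTGAA, the cell cycle homology region, occurred once in Cdkn3 and in 15.99% of all windows, and was in none of the Cdkn1a, Cdkn1b and Cdkn2d windows. The Cdkn2b window, not shown, held it once too. The motifs were chosen with the expression values known and matches are descriptions of sequence alone.

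Intensities were used as deposited, with log2(intensity + 16) for tests, so differences of dim genes are understated. Values are intensities unless called log2, and differences are log2 with standard errors. Fold values are these differences converted back from log2 with the 16 included, not ratios of the printed intensities. Adjusted p-values are from limma, over 18193 genes. On 5 genes (Cdkn1a, Cdkn1b, Cdkn2c, Cdkn2d and Cdkn3) every array of at least 1 population exceeded an intensity of 100. Cdkn1c, Cdkn2a and Cdkn2b stayed under it on all 9 arrays. In RNA of sorted cells, fewer cells of a type and less RNA per cell cannot be told apart.

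Against Mac1+ myeloblasts, neutrophils had 2 members higher (Cdkn1b and Cdkn2d), 3 lower (Cdkn1a, Cdkn2c and Cdkn3) and 3 that did not pass, and 48.1% of all genes were called in that comparison (19.7% higher and 28.4% lower). Against Mac1lo/- myeloblasts the same 5 genes were called in the same directions, beside 52.6% of all genes (22.6% higher and 30.0% lower). Both comparisons use the same neutrophil arrays. Between Mac1+ and Mac1lo/- myeloblasts, Cdkn2d and Cdkn3 were higher, Cdkn1a was lower and 5 members did not pass, while 11.8% of all genes were called (6.31% higher and 5.51% lower). That last share moves with single arrays: it is 2151 of 18193 genes with all arrays, 4178 without neutrophil array 1, and 1423, 1318 and 1317 without Mac1+ array 2, Mac1lo/- array 2 and Mac1lo/- array 3. The share of members called was 62.5% in each neutrophil comparison and 37.5% between the myeloblasts. The median difference of the 8 members was 0.12, 0.14 and 0.19 in these comparisons, against 0.05, 0.05 and -0.01 over all genes.

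**Figure D1:**
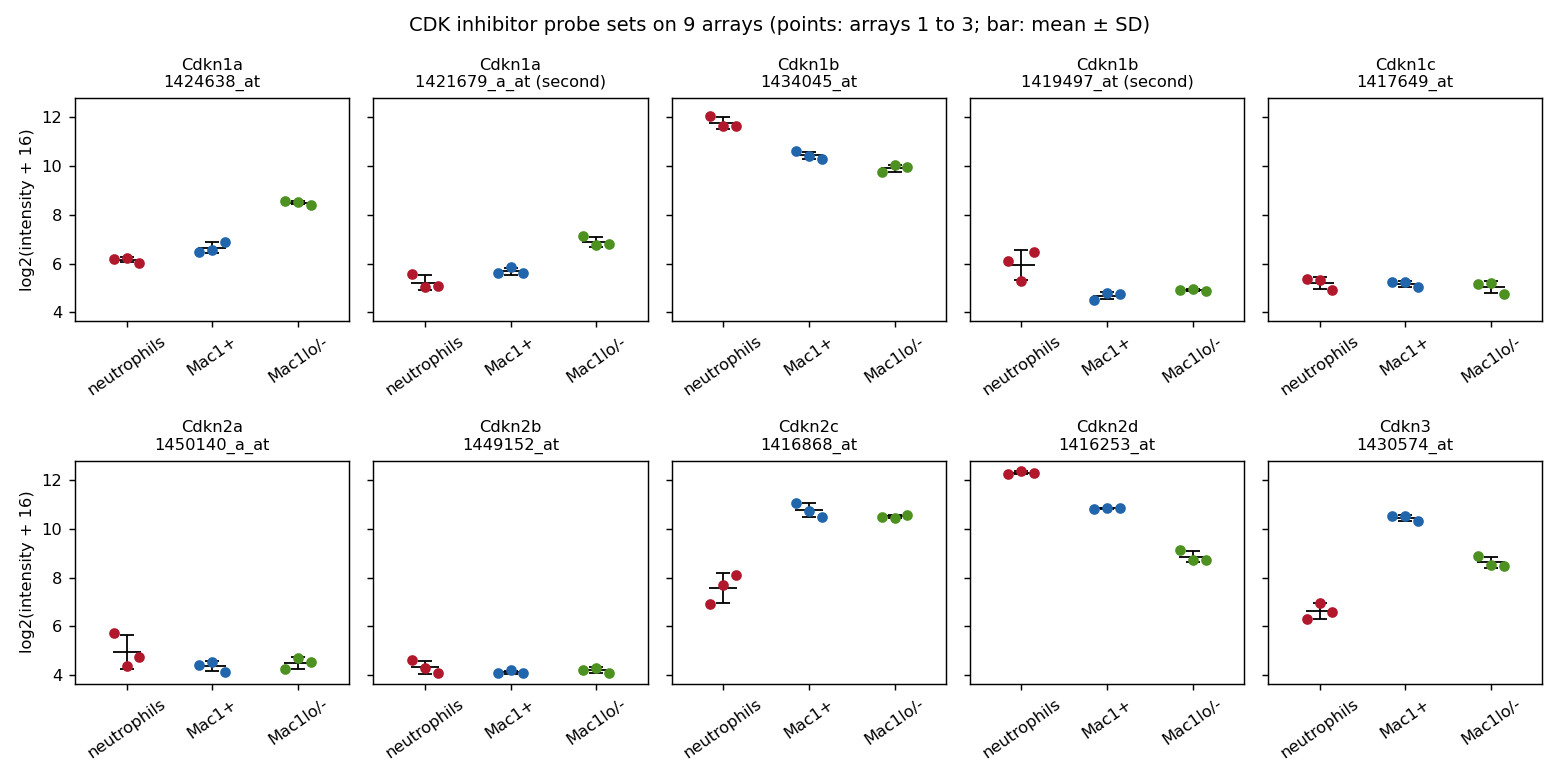
Level of each CDK inhibitor probe set, as log2(intensity + 16), in neutrophils, Mac1+ myeloblasts and Mac1lo/- myeloblasts. Points are the 3 arrays of a population and bars the mean ± SD. Cdkn2d is highest in neutrophils (12.31 ± 0.08) and lowest in Mac1lo/- myeloblasts (8.86 ± 0.23), whereas Cdkn3 is highest in Mac1+ myeloblasts (10.46 ± 0.13).

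Among the CIP/KIP genes, Cdkn1b had intensities of 4309, 3167 and 3150 in neutrophils, 1556, 1336 and 1247 in Mac1+ myeloblasts and 850.5, 1032 and 974 in Mac1lo/- myeloblasts. The populations did not overlap, and neutrophil array 1 was above the other neutrophil arrays. In neutrophils Cdkn1b was 2.53-fold higher than in Mac1+ myeloblasts (difference 1.34 ± 0.18, adjusted p = 0.000185) and 3.65-fold higher than in Mac1lo/- myeloblasts (1.87 ± 0.18, adjusted p = 1.67e-05). Without neutrophil array 1 these differences were 1.19 and 1.72. The step between the myeloblast populations was 0.53 ± 0.18 and did not pass (adjusted p = 0.100), although all 3 Mac1+ arrays were above all 3 Mac1lo/- arrays. It passed without neutrophil array 1 (adjusted p = 0.0171). The other Cdkn1b probe set was dim, at 52.6, 22.9 and 73.1 in neutrophils, 6.79, 12.03 and 10.8 in Mac1+ myeloblasts and 13.9, 14.9 and 13.8 in Mac1lo/- myeloblasts. It too was higher in neutrophils than in Mac1+ myeloblasts (1.27 ± 0.28) and Mac1lo/- myeloblasts (1.03 ± 0.28), but in Mac1+ against Mac1lo/- myeloblasts it pointed the opposite way (-0.23 ± 0.28, adjusted p = 0.871).

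Cdkn1a, the p53-responsive inhibitor, ran against Cdkn1b. Its brighter probe set gave 58.1, 59.1 and 49.8 in neutrophils, 74.0, 77.3 and 103.6 in Mac1+ myeloblasts and 359.7, 352.4 and 326.8 in Mac1lo/- myeloblasts. Only the Mac1lo/- arrays were well above 100. Cdkn1a fell 3.62-fold in Mac1+ against Mac1lo/- myeloblasts (-1.85 ± 0.15, adjusted p = 7.69e-05), and 232 of 18193 genes had a more negative difference. In neutrophils it was 5.06-fold lower than in Mac1lo/- myeloblasts (-2.34 ± 0.15, adjusted p = 1.57e-06). Neutrophils were also below Mac1+ myeloblasts (-0.49 ± 0.15, adjusted p = 0.0281), at dim levels in both. That call ended without neutrophil array 3 (adjusted p = 0.0675) or Mac1+ array 3 (adjusted p = 0.0990). It also ended with the replicate number as a block (adjusted p = 0.0642) or a trended and robust variance prior (adjusted p = 0.0572). When only these populations were fitted it ended too (adjusted p = 0.0812). The other Cdkn1a probe set read 31.2, 16.7 and 17.8 in neutrophils, 32.7, 41.9 and 33.2 in Mac1+ myeloblasts and 125.2, 94.2 and 94.9 in Mac1lo/- myeloblasts, the same order. In a fit of every probe set its Mac1+ against Mac1lo/- difference was -1.21 ± 0.20 (adjusted p = 0.00595), and its neutrophil against Mac1+ difference did not pass (-0.47 ± 0.20, adjusted p = 0.0901).

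As a sum, markers of monocytes and macrophages were also highest in Mac1lo/- myeloblasts. Their summed intensity over 10 measured genes was 17032 to 25284 in neutrophils, 5888 to 6996 in Mac1+ myeloblasts and 51690 to 55418 in Mac1lo/- myeloblasts. Some genes of the list differed from the sum. Adgre1 was highest in neutrophils (1940 to 2456, against 1221 to 1358 in Mac1lo/- myeloblasts), as was Cd68 (1489 to 2279, against 653.4 to 870.3). Csf1r and Klf4 overlapped between neutrophils and Mac1lo/- myeloblasts. All 10 exceeded 100 on every Mac1lo/- array, as 9 did on every neutrophil array and 9 on every Mac1+ array, with Cx3cr1 the exception. Their part in the Cdkn1a result was not tested.

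Cdkn1c, the imprinted member of the family, read 25.4, 23.8 and 14.4 in neutrophils, 21.6, 21.5 and 16.8 in Mac1+ myeloblasts and 19.6, 20.9 and 10.9 in Mac1lo/- myeloblasts. All populations overlapped. Its difference was 0.04 between neutrophils and Mac1+ myeloblasts (95% interval -0.38 to 0.46) and 0.17 between neutrophils and Mac1lo/- myeloblasts (-0.25 to 0.59). Between Mac1+ and Mac1lo/- myeloblasts it was 0.13 (-0.29 to 0.55). At these intensities the arrays bound the log2 difference and do not show that the gene is off.

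**Figure D2:**
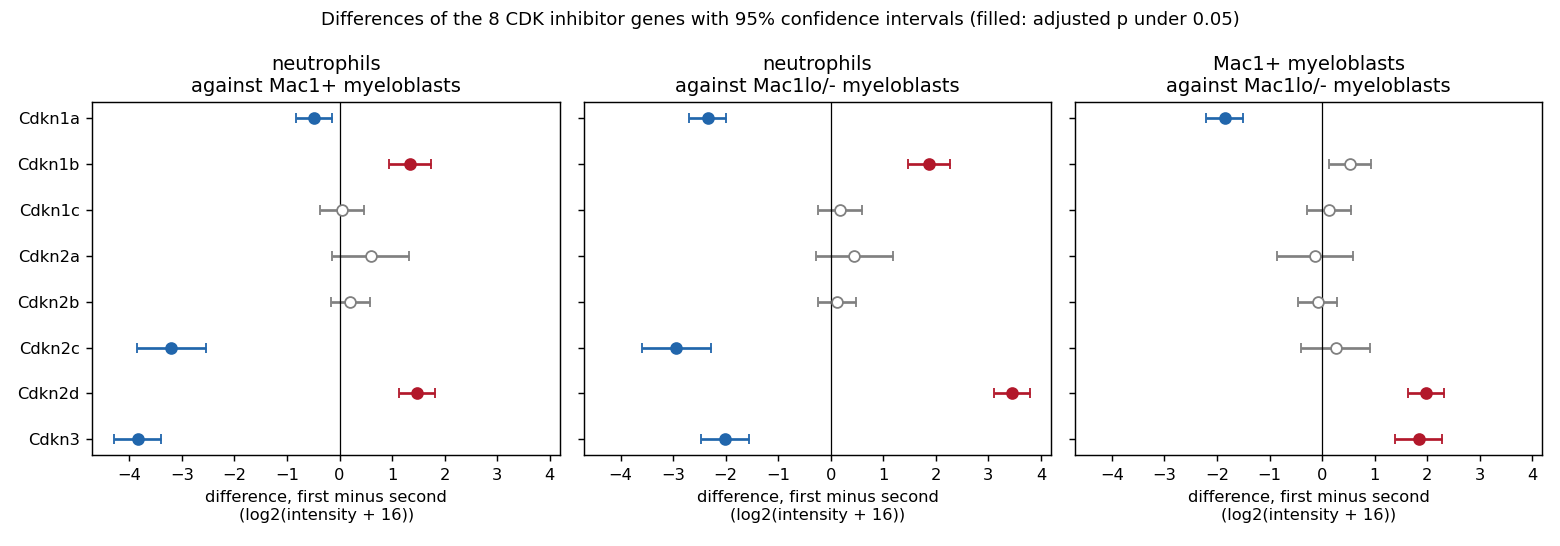
Difference of each of the 8 genes in 3 comparisons, first-named population minus the other, on the log2(intensity + 16) scale with 95% confidence intervals. Filled points passed an adjusted p of 0.05 (red higher, blue lower) and open grey points did not. Cdkn2d lies right of 0 in all 3 panels, and Cdkn3 changes side between the neutrophil panels (-3.84 and -2.01) and the myeloblast panel (1.83).

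The INK4 genes split in the same way. Cdkn2d, which encodes the INK4 protein p19, had intensities of 4798, 5326 and 5068 in neutrophils, 1790, 1820 and 1830 in Mac1+ myeloblasts and 541.5, 410.3 and 407.4 in Mac1lo/- myeloblasts. No populations overlapped, and the order was the same as for the bright Cdkn1b probe set. Neutrophils were 10.9-fold above Mac1lo/- myeloblasts (3.45 ± 0.15, adjusted p = 1.32e-07), and 372 of 18193 genes had a larger difference. The gene rose at each step, by 3.93-fold in Mac1+ against Mac1lo/- myeloblasts (1.98 ± 0.15, adjusted p = 4.47e-05) and by 2.77-fold in neutrophils against Mac1+ myeloblasts (1.47 ± 0.15, adjusted p = 3.52e-05). In the myeloblast comparison 185 genes had a larger difference. Without neutrophil array 1 the neutrophil differences were 1.51 and 3.49.

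Cdkn2c, which encodes p18, had the opposite pattern. Its intensity was 103.7, 192.3 and 258.0 in neutrophils, against 2144, 1685 and 1428 in Mac1+ myeloblasts and 1439, 1381 and 1514 in Mac1lo/- myeloblasts. The neutrophil arrays lay far below all 6 myeloblast arrays, with array 1 lowest. It was 9.19-fold lower in neutrophils than in Mac1+ myeloblasts (-3.20 ± 0.29, adjusted p = 1.55e-05) and 7.69-fold lower than in Mac1lo/- myeloblasts (-2.94 ± 0.29, adjusted p = 2.21e-05). These differences were -2.87 and -2.61 without neutrophil array 1. The myeloblast populations overlapped, with a difference of 0.26 and a 95% interval of -0.40 to 0.91 (adjusted p = 0.759).

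Cdkn2a and Cdkn2b are neighbours on chromosome 4. Cdkn2a encodes both p16 and the p53 activator Arf, which a single probe set cannot tell apart here. It read 37.1, 5.01 and 10.4 in neutrophils, 5.12, 7.24 and 1.57 in Mac1+ myeloblasts and 2.92, 9.93 and 7.54 in Mac1lo/- myeloblasts. Only neutrophil array 1 stood out, and its difference from Mac1+ myeloblasts was 0.59 with all arrays and 0.20 without array 1 (adjusted p = 0.161 and 0.411). Cdkn2b, which encodes p15, read 8.32, 3.45 and 1 in neutrophils, 1, 2.28 and 1.03 in Mac1+ myeloblasts and 2.74, 3.72 and 1 in Mac1lo/- myeloblasts. The value 1, met on 1 array of each population, was listed for 544 to 793 probe sets on each array. Neither gene passed in any comparison. In neutrophils against Mac1+ myeloblasts the 95% interval was -0.13 to 1.32 for Cdkn2a and -0.17 to 0.57 for Cdkn2b.

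Cdkn3 peaked in Mac1+ myeloblasts. It had intensities of 62.5, 107.8 and 80.9 in neutrophils, 1469, 1461 and 1255 in Mac1+ myeloblasts and 454.6, 346.4 and 344.0 in Mac1lo/- myeloblasts, with no overlap. Neutrophils were 14.4-fold below Mac1+ myeloblasts (-3.84 ± 0.20, adjusted p = 5.09e-07) and 4.02-fold below Mac1lo/- myeloblasts (-2.01 ± 0.20, adjusted p = 2.44e-05). Mac1+ myeloblasts were 3.57-fold above Mac1lo/- myeloblasts (1.83 ± 0.20, adjusted p = 0.000378), where 203 genes had a larger difference. Without neutrophil array 1 the neutrophil differences were -3.68 and -1.85.

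Beside the lists that follow, 48.1% and 52.6% of all genes were called in the neutrophil comparisons and 11.8% between the myeloblasts. The list of cyclins, their kinases and the Cdc25 phosphatases that activate those kinases was mostly lower in neutrophils. Of its 17 measured genes, 3 of them Cdc25 genes, 12 fell, 2 rose and 3 did not pass against Mac1+ myeloblasts, and 14 fell, 2 rose and 1 did not pass against Mac1lo/- myeloblasts (median differences -2.81 and -2.34, against 0.05 over all genes in each). The 2 that rose were Ccnd1 and Cdc25b against Mac1+ myeloblasts, and Ccnd3 and Cdc25b against Mac1lo/- myeloblasts. Cdk4, a target of the INK4 proteins, read 163.5, 36.5 and 32.6 in neutrophils, 3678, 3968 and 4303 in Mac1+ myeloblasts and 6819, 7178 and 6940 in Mac1lo/- myeloblasts. It fell in neutrophils against Mac1+ myeloblasts (-5.69 ± 0.43) and against Mac1lo/- myeloblasts (-6.50 ± 0.43), and neutrophil array 1 was the highest of its population. Cdk6, the other INK4 target, fell in both comparisons (-4.05 ± 0.20 and -3.94 ± 0.20). Ccne2, a cyclin partner of Cdk2, likewise (-4.63 ± 0.23 and -4.59 ± 0.23). Ccnd3, a D-type cyclin, was called higher in neutrophils only against Mac1lo/- myeloblasts, with differences of 1.14 ± 0.12 there and 0.15 ± 0.12 against Mac1+ myeloblasts. Between the myeloblasts 4 of the 17 rose, 1 fell and 12 did not pass (median 0.10). The risers were Ccnd3 (0.98 ± 0.12), Ccna2 (0.68 ± 0.16) and the phosphatase genes Cdc25a (0.94 ± 0.15) and Cdc25c (1.21 ± 0.25). The one that fell was Ccnd1, another D-type cyclin, which was 9.71-fold lower in Mac1+ than in Mac1lo/- myeloblasts (-3.28 ± 0.17, adjusted p = 4.93e-06).

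Parts and cofactors of ubiquitin ligases, some of which mark the inhibitors for degradation, were lower in neutrophils in 9 of 13 cases in each comparison, with 1 higher and 3 not passed (medians -1.40 and -2.11). Skp2, the F-box protein that recognises p27, read 73.3, 50.3 and 42.7 in neutrophils, 1924, 1917 and 2067 in Mac1+ myeloblasts and 2427, 2585 and 2494 in Mac1lo/- myeloblasts. It fell in neutrophils against both (-4.82 ± 0.17 and -5.16 ± 0.17). Its cofactor Cks1b fell in both comparisons too (-3.97 ± 0.25 and -3.90 ± 0.25). Dtl, a receptor of the ligase that degrades p21 during replication, had differences of -5.73 ± 0.17 and -5.99 ± 0.17. Between the myeloblasts 1 of 13 rose, Cdc20, and 12 did not pass, beside 6.31% of all genes called higher.

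**Figure D3:**
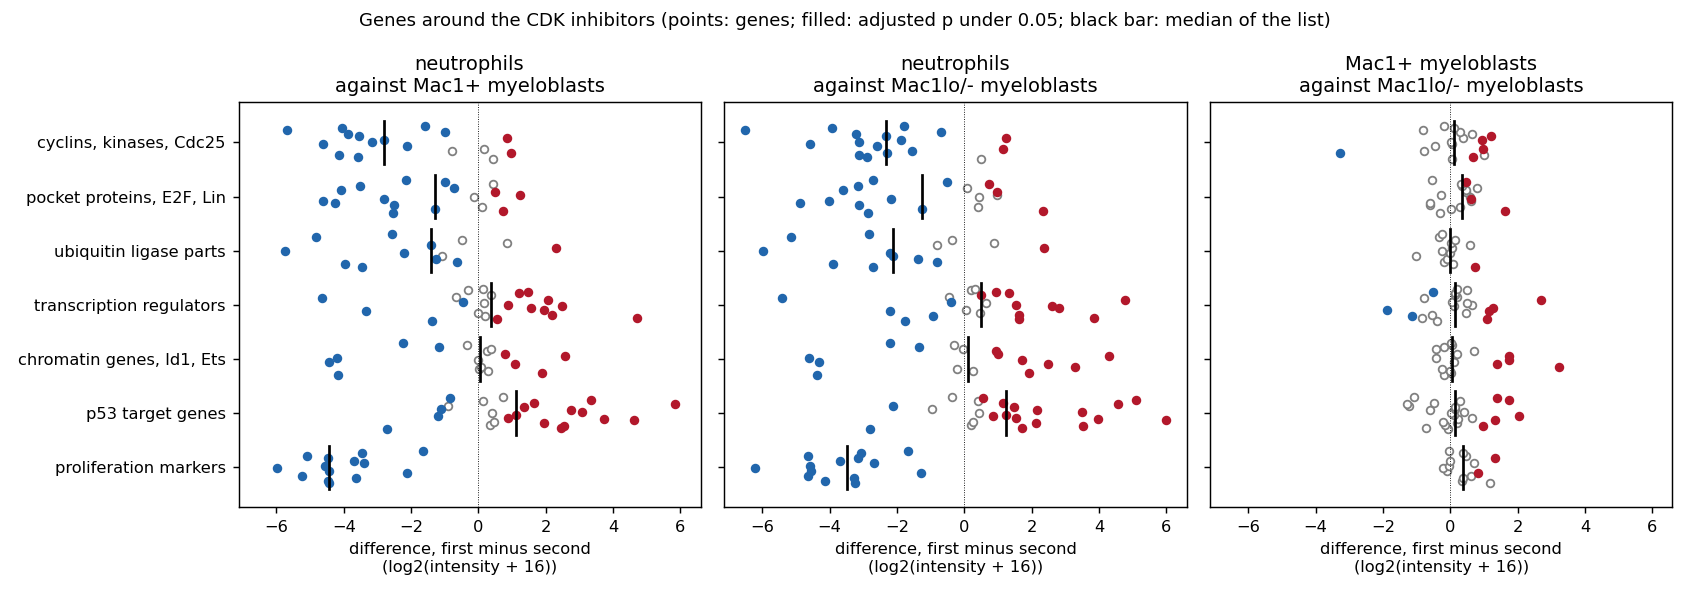
Differences of genes around the CDK inhibitors in 3 comparisons, first-named population minus the other, on the log2(intensity + 16) scale. Each point is a gene, filled where the adjusted p was under 0.05 (red higher, blue lower), and black bars are list medians. All 14 proliferation markers lie left of 0 in both neutrophil panels, and p53 target genes have medians of 1.11 and 1.22 there.

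Of 17 pocket protein, E2F and Lin genes, the downstream effectors of CDK control, 11 fell, 3 rose and 3 did not pass in neutrophils against Mac1+ myeloblasts (median -1.28), and 10 fell, 3 rose and 4 did not pass against Mac1lo/- myeloblasts (median -1.27). Rbl1, the pocket protein p107, fell in both (-3.53 ± 0.34 and -3.17 ± 0.34), as did the repressor gene E2f7 (-4.63 ± 0.34 and -4.01 ± 0.34). Between the myeloblasts 3 rose, led by E2f2 (1.61 ± 0.18, adjusted p = 0.00051), and 14 did not pass. All 14 proliferation markers fell in both neutrophil comparisons (medians -4.44 and -3.48), and 2 of 14, Plk1 and Cenpa, rose in Mac1+ against Mac1lo/- myeloblasts (median 0.37).

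Transcriptional regulators of the inhibitor genes went both ways, and 21 of 23 listed were measured. Trp53, the p53 gene, was listed but had no probe set naming exactly 1 gene. Of 21, 10 rose, 4 fell and 7 did not pass in neutrophils against Mac1+ myeloblasts, and 10 rose, 5 fell and 6 did not pass against Mac1lo/- myeloblasts (medians 0.37 and 0.51). Myc, a repressor of several inhibitor genes, fell in both (-4.64 ± 0.24 and -5.41 ± 0.24). Its antagonist Mxd1 was 4.76 ± 0.15 higher in neutrophils than in Mac1lo/- myeloblasts, and 2.71 ± 0.15 higher in Mac1+ than in Mac1lo/- myeloblasts. Between the myeloblasts 4 rose, 3 fell and 14 did not pass. Of 23 genes known as p53 targets, a list that leaves out Cdkn1a itself, 13 rose, 4 fell and 6 did not pass in neutrophils against Mac1+ myeloblasts. Against Mac1lo/- myeloblasts 15 rose, 2 fell and 6 did not pass. Trp53inp1, a p53-induced nuclear protein, rose by 3.35 ± 0.18 and 5.09 ± 0.18, and the death receptor gene Fas by 4.64 ± 0.17 and 5.97 ± 0.17. In Mac1+ against Mac1lo/- myeloblasts 5 rose, 0 fell and 18 did not pass (median 0.13). The 5 that rose, opposite in direction to Cdkn1a, were Trp53inp1, Btg2, Perp, Fas and Xpc. Their differences ran from 0.97 (Btg2) to 2.05 (Perp). Among the 18 that did not pass, some were lower, as Cdkn1a was, but short of the threshold. These included Sesn1 (-1.24 ± 0.50, adjusted p = 0.18) and Tap1 (-0.50 ± 0.15, 0.0662). They also included the dim Sesn2 (-1.28 ± 0.37, adjusted p = 0.0575), Zmat3 (-1.08 ± 0.31, 0.0574) and Bbc3 (-0.74 ± 0.22, 0.0614). Mdm2 was higher, also short of the threshold (0.63 ± 0.20, adjusted p = 0.0878). The part of p53 in the Cdkn1a result was not tested.

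The list of regulators of the Cdkn2a and Cdkn2b locus held 16 measured genes, of which 13 encode chromatin proteins and 3 (Ets1, Ets2 and Id1) encode transcription factors or their inhibitor. In neutrophils 4 rose, 5 fell and 7 did not pass against Mac1+ myeloblasts, and 7 rose, 5 fell and 4 did not pass against Mac1lo/- myeloblasts (medians 0.05 and 0.11). Of all genes, 48.1% and 52.6% were called in these comparisons. Ets2 was among the 4 that rose, and Ets1, Ets2 and Id1 were among the 7. The Polycomb genes Bmi1 and Ezh2, which keep the locus silent in many cells, fell against Mac1+ myeloblasts (-4.18 ± 0.46 for Bmi1 and -4.44 ± 0.18 for Ezh2). Suz12, Ring1 and Kdm2b fell there too, while Eed, Cbx8, Rnf2, Pcgf2 and Phc1 did not pass. Cbx7, another Polycomb gene, went the other way in neutrophils, by 1.89 ± 0.30 against Mac1+ and 1.93 ± 0.30 against Mac1lo/- myeloblasts. Kdm6b, which removes the Polycomb mark, was higher in neutrophils by 2.56 ± 0.24 and 4.29 ± 0.24 against Mac1+ and Mac1lo/- myeloblasts. Between the myeloblasts 4 rose, 0 fell and 12 did not pass. Only Kdm6b (1.73 ± 0.24) of the 4 encodes a chromatin protein, beside Ets1 (3.22 ± 0.19), Id1 (1.74 ± 0.20) and Ets2 (1.39 ± 0.15).

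For each of the 5 brighter members, the 3 genes with the most similar profile over the 9 arrays were listed from 9096 genes above the median level. With populations this far apart, many genes share a profile, and these correlations describe the 3 populations more than single arrays. Cdkn2d was nearest to Slfn4, a Schlafen family gene (r = 0.998), Pilra, an inhibitory receptor (0.998), and Crispld2 (0.998). Cdkn1b was nearest to the actin regulators Cap1 (r = 0.996) and Marcks (0.995) and to Agrn, which encodes agrin (0.996). Cdkn1a was nearest to Txndc5 (r = 0.996), the progenitor antigen gene Cd34 (0.993) and Sting1, an adaptor of DNA sensing (0.993). Cdkn2c was nearest to the cohesin gene Stag1 (r = 0.995), Commd3 (0.994) and Plk4, a kinase of centriole duplication (0.994). Cdkn3 was nearest to Tfdp1, the DNA-binding partner of E2F (r = 0.996), Hspb6 (0.992) and Vcam1 (0.992).

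**Figure D4:**
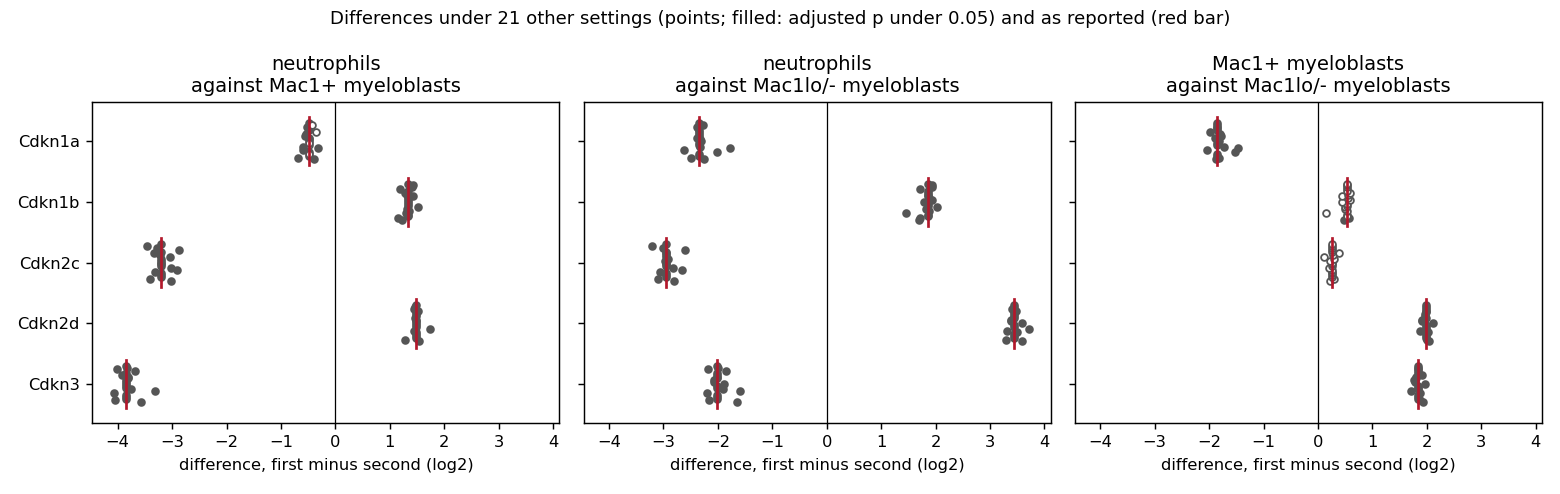
Differences of the 5 brighter members under 21 other settings (points, filled where the adjusted p was under 0.05) beside the reported value (red bar), first-named population minus the other, in log2 units. Cdkn2d ranged from 3.29 to 3.72 in neutrophils against Mac1lo/- myeloblasts, and open points mark Cdkn1a against Mac1+ myeloblasts and Cdkn1b and Cdkn2c between the myeloblasts.

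As a check of the sort, Kit read 94.9, 295.4 and 331.4 in neutrophils, 3336, 3176 and 3470 in Mac1+ myeloblasts and 2998, 3217 and 3228 in Mac1lo/- myeloblasts, lowest in the c-kit- cells. Itgam, the Mac1 alpha chain, read 2027, 3553 and 3675 in neutrophils, 919.8, 823 and 695 in Mac1+ myeloblasts and 74.1, 69.2 and 71.7 in Mac1lo/- myeloblasts. Neutrophil array 1 stood apart. It correlated at 0.940 with its nearest neutrophil array, whereas every other array reached 0.986 to 0.994 within its population, and its summed progenitor markers were 16064, against 4782 and 2807 on neutrophil arrays 2 and 3. The largest parts of that sum on array 1 were Mpo (7132) and Prtn3 (3349), while Kit, in the same list, was lowest there. Summed neutrophil markers were 105771 to 130686 in neutrophils, 86820 to 101261 in Mac1+ myeloblasts and 16391 to 20409 in Mac1lo/- myeloblasts. In the B cell, T and NK cell, erythroid, megakaryocyte and eosinophil, basophil and mast cell lists, 1 to 4 measured genes of a list exceeded 100 on every array of a population, among them Ebf1, Nkg7 and Tfrc. Cd3e, which defines T cells, lay at 7.63 to 23.1 and Pax5, which defines B cells, at 32.2 to 48.1 on all 9 arrays. Other genes of these lists were brighter. Ebf1, of the B cell list, read 11772, 8838 and 1898 in Mac1+ myeloblasts and 7051 to 11397 in Mac1lo/- myeloblasts. Nkg7, of the T and NK cell list, read 10680 to 11877 and 7577 to 8000 in these populations. Tfrc, of the erythroid list, read 7621 to 7904 and 4680 to 5375. Siglecf, of the eosinophil, basophil and mast cell list, read 1971 to 2253 in Mac1+ and 629.0 to 833.9 in Mac1lo/- myeloblasts. Mcpt8, of the same list, read 596.1 to 696.2 and 743.2 to 831.6 in these populations. In neutrophils Cd3d, a T cell receptor subunit gene, read 356.8 to 484.3. Cd8a read 124.8 to 268.3 in neutrophils, overlapping Mac1+ (81.1 to 143.5) and Mac1lo/- myeloblasts (68.2 to 286.3). The B cell genes Cd79b and Igll1 read 550.9 to 747.0 and 614.8 to 674.5 in Mac1+ myeloblasts, and 934.3 to 1176 and 694.2 to 775.2 in Mac1lo/- myeloblasts. The part of these markers in the results was not tested.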

How the data were processed

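PolyA RNA of 9 samples was amplified, labelled with biotin and hybridised to Affymetrix arrays, per the labels' protocols. The authors deposited 1 table of linear intensity values, whose summarisation, scaling and genome build the sources used here do not give. Median intensity per array was 39.1 to 61.8. Array number limits precision. No detection calls were used.

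Probe sets naming several genes (932) or none (9160) and 64 controls stayed out. The brightest probe set by mean log2(intensity + 16) stood for a gene (18193 genes). Differences were tested in limma 3.58.1 (R 4.3.3), 1 model of 3 populations, adjusted by Benjamini-Hochberg, threshold 0.05. Members, lists, motifs and named genes were chosen with earlier results of these data known. Named genes are the members, sort markers, up to 4 called genes per list with the largest differences (a part is shown), and the 3 most similar genes per member. Cell type markers, Ccna2, Cdc25b, Cbx7, Suz12, Ring1, Eed, Cbx8, Rnf2, Pcgf2, Phc1, Mdm2, Tap1, Zmat3 and Bbc3 were named after their values were seen. So were Btg2 and Sesn1, and Ccnd1, Ccnd3, Id1, Ets1, Ets2 and Sesn2 where outside that rule. The procedure was tested on simulated data. Gene symbols were checked against GRCm38.p6, where 99.1% of gene IDs matched. Alternatives were a replicate block, normalizations, offsets of 1 and 64, a filter on the dimmest 40%, other probe set rules, variance models and leaving out each array.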

Additional observations from a re-analysis of the deposited data

How the results depend on the processing

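The counts of members called moved by at most 1 gene under every alternative. Of 495 differences recomputed for the 8 members, 475 kept their direction and side of the threshold, 5 lost the call, 5 gained one and 10 changed sign. The lost calls were all of Cdkn1a in neutrophils against Mac1+ myeloblasts, at adjusted p = 0.0642 with the replicate block, 0.0572 with a trended and robust prior and 0.0812 when these populations were fitted alone, and without neutrophil array 3 or Mac1+ array 3. Cdkn1b between the myeloblasts gained a call with arrays centred on their medians (adjusted p = 0.0461), in a fit of these populations alone (0.0237), with array weights (0.00491) and without neutrophil array 1, and Cdkn2a in neutrophils against Mac1+ myeloblasts without neutrophil array 2 (0.0495). Over all alternatives this Cdkn2a p ranged up to 0.966. Mean probe sets gave Cdkn1b 0.15 between the myeloblasts. Sign changes touched Cdkn1c, Cdkn2a and Cdkn2b in comparisons where none of them was called. Cdkn1c became -0.18 with quantile normalization, -0.16 with centred arrays and -0.044 to 0.18 when an array was left out, in neutrophils against Mac1+ myeloblasts. It became -0.036 with quantile normalization against Mac1lo/- myeloblasts, and ranged from -0.017 (without Mac1lo/- array 3) to 0.21 between the myeloblasts when an array was left out. Against Mac1lo/- myeloblasts, Cdkn2a became -0.11 with array weights, and Cdkn2b -0.042 with centred arrays and -0.021 (without neutrophil array 1) to 0.24 when an array was left out. Cdkn1c, Cdkn2a and Cdkn2b fell under the filter on dim genes and have no value there. Centring moved the median of all genes to -0.15 and -0.12 in the neutrophil comparisons. Between the myeloblasts the count of all called genes was 2151, and 4509 in the fit of these populations alone, 5760 with array weights, 4178 without neutrophil array 1, and 1423, 1318 and 1317 without Mac1+ array 2, Mac1lo/- array 2 and Mac1lo/- array 3. Same-numbered arrays did not deviate together (correlations -0.31 to 0.13). With 3 arrays per population these correlations cannot decide whether the replicate numbers pair arrays. With the replicate block the number of members called lower in neutrophils against Mac1+ myeloblasts was 2, and the other counts stayed at their values. No depth is defined for arrays, and signal near the floor limits Cdkn1c, Cdkn2a and Cdkn2b.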
